A study of Mus musculus with 18 samples.

Results

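The genes described are the nuclear genes of oxidative phosphorylation: 86 of the 20683 genes in the deposited count table. They were chosen by symbol, taking the Ndufa, Ndufb, Ndufc, Ndufs and Ndufv genes, Sdha to Sdhd, the Uqcr genes, Cox4 to Cox8, the Atp5 genes, and Usmg5. By symbol 37 belong to complex I, 4 to complex II, 8 to complex III, 19 to complex IV (with Ndufa4, whose protein is a complex IV subunit) and 18 to complex V. All 86 had leader, coding and 3' UTR rows, and 60 had at least 1 harringtonine position. Of the 86, 3 are related genes and not established subunits of the complex their symbol names (Atp5s, Atp5sl and Ndufa4l2).

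The cells were erythroblasts, the precursors of red blood cells, from fetal livers of Trp53 -/- mice of strain FVB/n x C57BL/6. Treated and untreated cells alike carried this genotype and grew in StemPro medium with 0.5 U/ml erythropoietin, 1% stem cell factor and 1 nM dexamethasone. Tunicamycin, an inhibitor of N-glycosylation that stresses the endoplasmic reticulum, was given at 2.5 ug/ml for 1.5 h, and the other cells were left untreated. Each condition had 3 libraries of total RNA, 3 of footprints from ribosomes stalled with 100 ug/ml cycloheximide for 5 min, and 3 of footprints after 2 ug/ml harringtonine, which holds ribosomes at start sites. The series asks which mRNAs are translated selectively when initiation factor eIF2 is phosphorylated.

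Oxidative phosphorylation takes place in the inner mitochondrial membrane. Complexes I to IV pass electrons to oxygen and pump protons, complex II being the exception that pumps none, and complex V uses the proton gradient to make ATP. Most subunits are encoded in the nucleus, translated in the cytosol and imported, while a few of complexes I, III, IV and V come from mitochondrial DNA. Erythroblasts need mitochondria for haem synthesis and lose them before the red cell is mature.

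Totals are in mega reads (M). RNA libraries held 14.5 to 43.5 M reads under tunicamycin and 12.9 to 49.0 M untreated. Coding footprints came to 4.53 to 5.09 M per library under tunicamycin and 6.42 to 6.65 M untreated. The 86 genes took 2.03 to 2.22% of RNA reads under tunicamycin and 2.13 to 2.23% untreated, and 3.07 to 3.13% of coding footprints under tunicamycin and 2.99 to 3.17% untreated. Of 10 erythroid marker genes none was under 1 CPM of RNA, and their sum was 5143 to 5483 CPM under tunicamycin and 5102 to 5445 CPM untreated. Each of 5 macrophage, 5 neutrophil and monocyte, and 5 endothelial and stromal markers was under 1 CPM. Mast cell markers, 2 of 5 under 1 CPM, summed to 562 to 628 CPM under tunicamycin and 552 to 601 CPM untreated. They were led by Kit, which erythroid progenitors also express, with a mean of 442 CPM. The rest of the sum came from other mast cell markers, and the part of mast cells in the results was not tested. Megakaryocyte markers, 1 of 5 under 1 CPM, summed to 107 to 118 CPM under tunicamycin and 124 to 134 CPM untreated. They were led by Gp5, a platelet membrane glycoprotein, the groups did not overlap, and their part in the results was not tested. Of 5 hepatocyte markers 4 were under 1 CPM, with sums of 1.36 to 1.96 CPM under tunicamycin and 1.01 to 1.86 CPM untreated. CPM means reads per M after scaling by the trimmed mean of M values (TMM), which sets the typical gene near no change.

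At the RNA level no subunit gene passed the test. Of the 86 genes 80 had enough RNA reads to be tested, and 0 passed edgeR's quasi-likelihood test at an adjusted p under 0.05, against 0.15% of all 10643 genes. At an unadjusted p under 0.05 there were 4 of the 80, all with lower values under tunicamycin. That count stands without the share of all genes and is descriptive only. DESeq2 called 0 of the subunit genes. With the replicate number as a block 0 of them passed, while the count over all genes was 410, against 16 without the block. The median log2 change was -0.06 (25 above 0, 55 below), against -0.005 over all genes. In bulk RNA, fewer cells of a type and less RNA per cell cannot be told apart.

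The smallest p in RNA belonged to Atp5sl, with 25.5, 25.1 and 24.5 CPM under tunicamycin and 29.4, 29.1 and 28.1 CPM untreated. The tunicamycin libraries lay below every untreated one (log2 -0.21 ± 0.07 SE, edgeR adjusted p = 0.316). Atp5g1, which encodes a form of the proton-carrying c subunit of ATP synthase, had 288, 304 and 261 CPM under tunicamycin and 313, 337 and 325 CPM untreated, with no overlap (-0.19 ± 0.07, edgeR adjusted p = 0.334). Cox6a1, a nuclear-encoded subunit of cytochrome c oxidase, averaged 465 ± 34.7 CPM under tunicamycin and 528 ± 3.80 CPM untreated (SD, n = 3 each). Summed RNA of complexes I to V overlapped between the groups for each complex, for example 8663 ± 574 CPM under tunicamycin and 8722 ± 102 CPM untreated for complex V.

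Footprints on the coding sequence rose for 4 of the 76 genes that could be tested, and fell for 0. The 4 were Usmg5, Ndufa5, Cox6c and Ndufb3. Over all 9265 genes 2.58% passed, 1.78% up and 0.799% down. The median log2 change of the 76 was 0.08 (50 above 0, 26 below), against 0.002 over all genes. At an unadjusted p under 0.05 there were 22 of the 76 (28.9%), against 1542 of the 9265 genes (16.6%). The medians were 0.06 for complex I, -0.04 for complex II, 0.17 for complex III, 0.20 for complex IV and 0.10 for complex V.

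**Figure D1:**
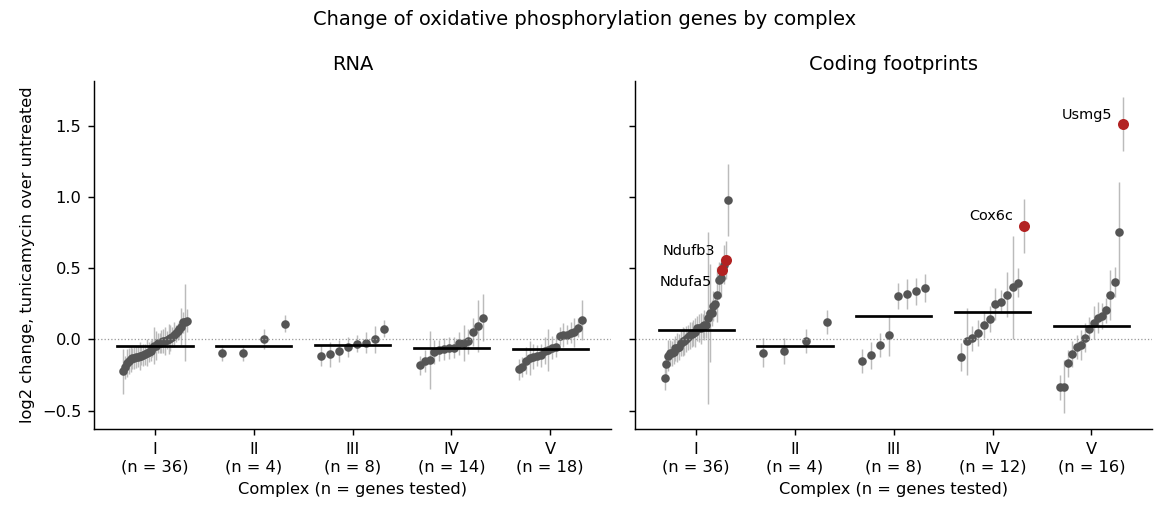
Log2 change, tunicamycin over untreated, of each tested gene in RNA (left) and coding footprints (right), by complex, with bars for the standard error and a black line at each complex's median. Red points passed at an adjusted p under 0.05: 0 in RNA, and Usmg5, Cox6c, Ndufb3 and Ndufa5 in footprints.

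Usmg5 encodes a small membrane subunit of ATP synthase, found where the enzyme forms dimers. It had 111, 147 and 213 CPM of coding footprints under tunicamycin and 57.3, 42.6 and 65.2 CPM untreated. Every tunicamycin library was above every untreated one, and the log2 change was 1.51 ± 0.19 SE (edgeR adjusted p = 0.00072). Its RNA was 276, 263 and 212 CPM under tunicamycin and 279, 242 and 272 CPM untreated. The RNA groups overlapped (log2 -0.08 ± 0.09), and without tunicamycin RNA library 3 the RNA change was 0.03.

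Ndufa5, a subunit of the matrix arm of complex I, had 129, 149 and 153 CPM of coding footprints under tunicamycin and 104, 104 and 99.3 CPM untreated. The groups did not overlap (log2 0.49 ± 0.09 SE, edgeR adjusted p = 0.014). Ndufb3, a subunit of the membrane arm of complex I, had 257, 243 and 300 CPM under tunicamycin and 170, 144 and 229 CPM untreated, also without overlap (0.56 ± 0.14, edgeR adjusted p = 0.0437). Cox6c, a small nuclear-encoded subunit of cytochrome c oxidase, had 31.5, 37.6 and 49.7 CPM under tunicamycin and 17.4, 21.0 and 29.95 CPM untreated. Its groups did not overlap (0.80 ± 0.19, edgeR adjusted p = 0.0404), but its 1024 coding footprints in 6 libraries stood beside 80717 RNA reads.

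These calls differ in how far they hold. The call for Usmg5 held under each of 11 alternatives in footprints, and those of Cox6c, Ndufb3 and Ndufa5 were lost under 4, 4 and 3 of them. Leaving out tunicamycin library 2 or 3 or untreated library 2 left Usmg5 alone. Without tunicamycin library 1 there were 13 of 76 subunit genes, against 431 of all 9409 genes tested.

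**Figure D2:**
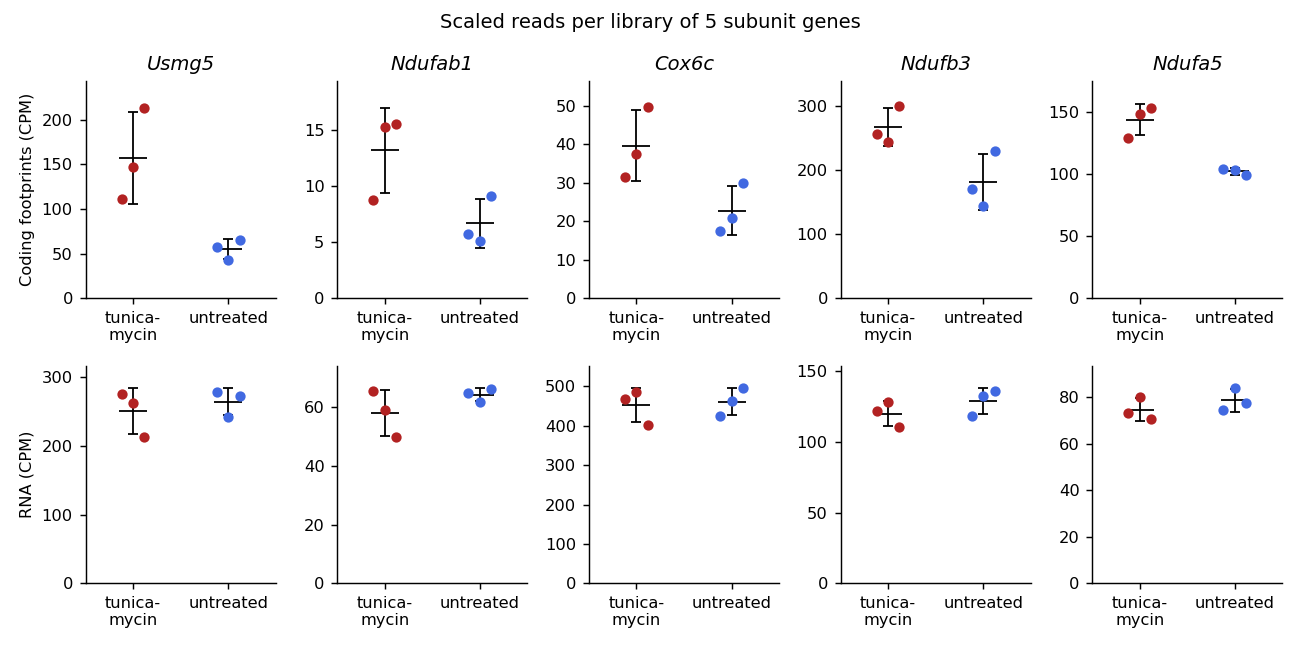
Coding footprints (top row) and RNA (bottom row) of 5 subunit genes in CPM, with a point for each library and the mean ± SD of 3 libraries, tunicamycin left and untreated right. Coding footprints of Usmg5 were 111 to 213 CPM under tunicamycin and 42.6 to 65.2 CPM untreated, while its RNA groups overlapped.

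Ndufab1 encodes the mitochondrial acyl carrier protein, which also serves as a complex I subunit. Its coding footprints were 8.80, 15.2 and 15.5 CPM under tunicamycin and 5.76, 5.13 and 9.12 CPM untreated. The lowest tunicamycin library lay below the highest untreated one, and the gene did not pass (log2 0.98 ± 0.25 SE, edgeR adjusted p = 0.0516). It passed under 6 of 11 alternatives. Cox8a, a small subunit of cytochrome c oxidase, had 232, 286 and 257 CPM under tunicamycin and 193, 176 and 220 CPM untreated, without overlap (0.40 ± 0.10, edgeR adjusted p = 0.0529). Atp5j2, the f subunit of ATP synthase, had 382, 379 and 494 CPM under tunicamycin and 317, 295 and 338 CPM untreated, also without overlap (0.40 ± 0.11, edgeR adjusted p = 0.0562).

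Sdhc, a membrane anchor of complex II, had the smallest p of its complex, with 302, 345 and 341 CPM under tunicamycin and 297, 302 and 310 CPM untreated. The groups overlapped (0.12 ± 0.09, edgeR adjusted p = 0.509). Groups that did not overlap were counted for genes averaging 1 CPM or more. All tunicamycin libraries were above the untreated ones in 15 of 77 subunit genes (19.5%) and below in 4 (5.19%), against 11.2% and 10.2% of all 9562 genes.

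In complex III the core and small subunits lay on different sides of 0. Counted as core here were Uqcrc1 and Uqcrc2, which are called core proteins by name and face the matrix, and Uqcrfs1, the Rieske iron-sulfur protein. Uqcrc1 had 861, 827 and 762 CPM of coding footprints under tunicamycin and 901, 915 and 907 CPM untreated. Every tunicamycin library was lower, though the gene did not pass (log2 -0.15 ± 0.08 SE, edgeR adjusted p = 0.381). The small subunits were on the other side. Uqcr10 had 169, 188 and 204 CPM under tunicamycin and 131, 146 and 160 CPM untreated, without overlap (0.36 ± 0.10, edgeR adjusted p = 0.0714). Uqcrh, the hinge protein, had 655, 663 and 816 CPM under tunicamycin and 570, 539 and 580 CPM untreated, likewise without overlap (0.34 ± 0.10, edgeR adjusted p = 0.0798). The log2 changes of Uqcr11, Uqcrq and Uqcrb were 0.30, 0.32 and 0.03. None of these 5 small subunits passed in the main edgeR fit. Uqcr10 and Uqcrh passed by DESeq2, these and Uqcrq with no filter on low counts or without tunicamycin library 1, and these 3 and Uqcr11 with the replicate number as a block.

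Values of the same kind were seen when the genes of all complexes were sorted into core and other nuclear subunits. Core subunits were taken as those that carry the cofactors or catalysis or form the conserved centre of a complex. Uqcrc1 and Uqcrc2 of complex III were counted as core by their name and not by this definition. This split was made after the values were seen and has no test. Complex II has core genes only and complex IV other subunits only, so the pooled counts partly set complex II against complex IV. Coding footprints were above 0 for 5 of 19 core genes and below for 14 (median log2 -0.05). For the other subunits 43 of 54 were above 0 and 11 below (median 0.13), and the 4 genes that passed were among them. Above 0 were 3 of 7 core and 20 of 28 other genes in complex I, and 1 of 5 and 8 of 9 in complex V. In complex II 1 of 4 core genes was above 0, and in complex IV 10 of 12 other subunits. In RNA the core genes had 9 above 0 and 10 below, and the other subunits 14 above and 44 below. Core genes such as Atp5b and Atp5a1, the catalytic beta and the alpha subunits of ATP synthase, hold the largest footprint counts of complex V (31.1 and 29.9% of its sum). No coding lengths were used here, so levels of different genes are not compared.

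**Figure D3:**
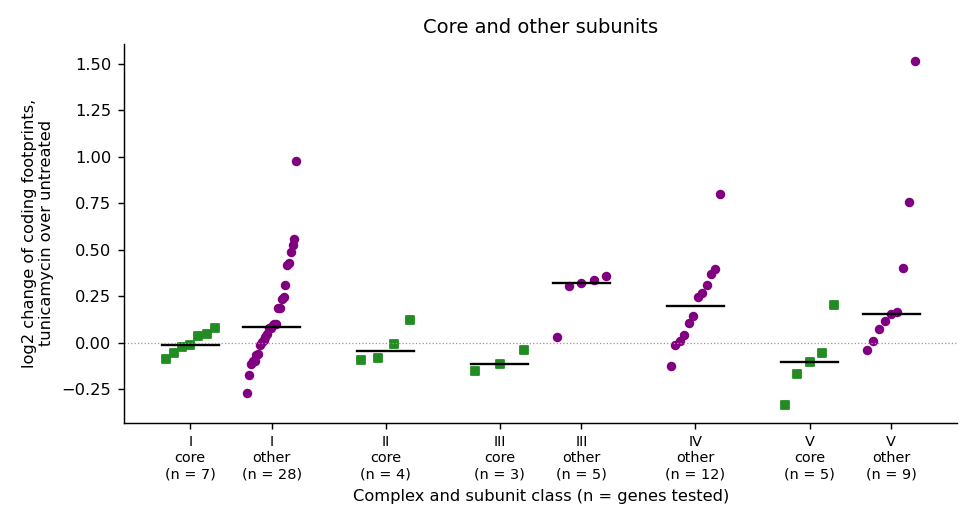
Log2 change of coding footprints, tunicamycin over untreated, of core (green squares) and other (purple circles) subunit genes by complex, with a black line at each median; the 3 related genes are left out. In complex III the 3 core genes lie below 0 and the 5 others above 0.

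Atp5d, the delta subunit in the central stalk of ATP synthase, had the smallest p among genes with lower values. Its coding footprints were 561, 595 and 502 CPM under tunicamycin and 680, 678 and 734 CPM untreated. Every tunicamycin library was lower, and the gene did not pass (log2 -0.34 ± 0.09 SE, edgeR adjusted p = 0.0581). Summed over its genes, complex V had 14682 ± 482 CPM of coding footprints under tunicamycin and 15061 ± 366 CPM untreated (SD, n = 3 each), overlapping with TMM scaling but lower in every tunicamycin library when scaled by library totals. Complex III summed to 3323 ± 33.1 CPM under tunicamycin and 3173 ± 74.6 CPM untreated, which did not overlap with TMM scaling and overlapped with library totals. The other complexes overlapped under both scalings.

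Translational efficiency, the ratio of coding footprints to RNA tested in 1 model over 12 libraries, rose for Usmg5 and Ndufa5 among 81 genes tested, and fell for 0. Over all 10154 genes 1.07% passed, 0.739% up and 0.335% down. Usmg5 had a log2 change of 1.59 ± 0.25 SE (edgeR adjusted p = 0.00992) and Ndufa5 of 0.56 ± 0.12 (edgeR adjusted p = 0.0317). The call for Usmg5 held under each of 17 alternatives, and that for Ndufa5 was lost under 7. Ndufab1 did not pass (1.12 ± 0.27, edgeR adjusted p = 0.0510), nor did Cox8a (0.54, adjusted p = 0.0646), Cox6c (0.82, adjusted p = 0.0803), Uqcrh (0.44, adjusted p = 0.0877), Atp5j2 (0.45, adjusted p = 0.124), Uqcr11 (0.40, adjusted p = 0.133) or Sdhc of complex II (0.21). With the replicate number as a block 15 of the 81 passed, 14 up and 1 down (Atp5a1), against 766 of all 10154 genes (380 up, 386 down). Of the genes just named as not passing, all but Sdhc were among the 15. The median of the 81 was 0.12, against -0.02 over all genes. Of the 81, 6 had too few reads in 1 of the assays to pass the filter there (Cox7c, Ndufs5, Ndufb4, Cox6b2, Atp5g1 and Atp5g2), and without them the median of 75 genes was also 0.12.

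In untreated cells the median log2 of coding footprints per RNA was 0.42 for complex I, 0.64 for complex II, 0.27 for complex III, -0.19 for complex IV and 0.39 for complex V, against -0.19 over all genes. These ratios use no lengths and describe the counts as deposited. They cover genes of at least 1 CPM untreated in both assays: 36, 4, 8, 12 and 16 in complexes I to V, and 9399 in all. Cox7c, Atp5g1, Atp5g2 and Ndufs5 are not among them. Some genes had few coding footprints for their RNA. Cox7c had 0 coding footprints and 15213 RNA reads over 6 libraries each, with 47 leader footprints and 73 harringtonine reads. Atp5g1 had 11 coding footprints beside 54846 RNA reads and 506 harringtonine reads, and Atp5g2 had 2 beside 9212. Ndufs5 went the other way, with 70 coding footprints and 0 RNA reads. Of 77 subunit genes with at least 1000 RNA reads 5 (6.49%) had under 10 coding footprints per 1000 RNA reads, against 2.51% of 8793 genes. Counts of genes with near-identical copies are uncertain, since no source used here says how reads matching several places were assigned, and the part of such reads in these values was not tested.

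Footprints on the 5' leader rose relative to the coding sequence, as they did across the table. Of 51 subunit genes with enough reads in both features 33 (64.7%) rose and 0 fell, against 64.4% up and 0.0639% down among 4693 genes, so the share was near that of all genes. The median log2 change of the leader to coding ratio was 0.82, against 0.90 over all genes. By complex, 12 of 21 rose in I, 2 of 3 in II, 5 of 7 in III, 8 of 9 in IV and 6 of 11 in V.

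Uqcrc2 had the largest change. Its leader held 105, 86 and 132 footprints under tunicamycin and 28, 19 and 36 untreated, or 3.59, 3.09 and 4.29% of its leader and coding footprints under tunicamycin and 0.708, 0.449 and 0.983% untreated. The groups did not overlap (log2 of the ratio 2.42 ± 0.31 SE, edgeR adjusted p = 0.000385). Atp5a1 followed with 84, 67 and 124 leader footprints under tunicamycin and 43, 23 and 30 untreated (2.11 ± 0.32, edgeR adjusted p = 0.00062). Its leader share stayed under 1% in every library. Cox7b and Ndufa4, both of complex IV, rose by 1.82 ± 0.28 and 1.72 ± 0.29. Leader shares of Ndufa4 were 10.5, 9.39 and 16.0% under tunicamycin and 4.54, 3.15 and 3.99% untreated. Uqcrfs1 (1.55), Atp5d (1.52), Ndufb2 (1.45), Ndufa10 (1.40), Uqcrc1 (1.34), Cox6b1 (1.34), Cox5a (1.26) and Ndufb8 (1.21) complete the 12 largest. Of these 12, Uqcrc1 alone lost its call under any of 9 alternatives, at 0.76 without tunicamycin library 3 (edgeR adjusted p = 0.195) and 0.98 without untreated library 1 (edgeR adjusted p = 0.0908).

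**Figure D4:**
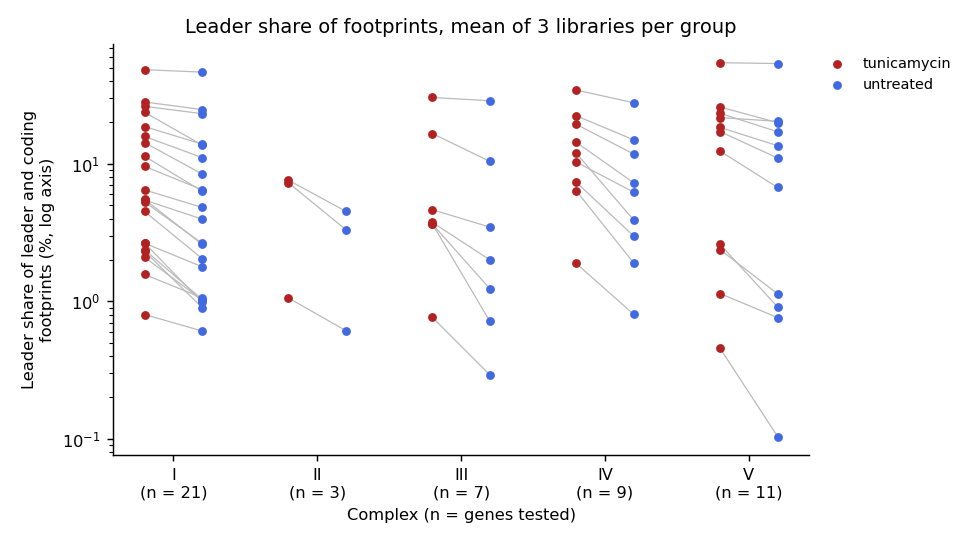
Leader share of leader and coding footprints in percent (log axis), mean of 3 libraries, for the 51 tested genes by complex, tunicamycin (red, left) joined to untreated (blue, right). Usmg5 is the highest in complex V, with 54.4% under tunicamycin and 53.6% untreated, and Atp5a1 the lowest, with 0.454% and 0.104%.

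Usmg5 and Ndufab1 had the smallest changes of the ratio. The leader of Usmg5 held 655, 797 and 1278 footprints under tunicamycin and 439, 316 and 495 untreated, beside 543, 667 and 1083 coding footprints under tunicamycin and 378, 274 and 429 untreated. Leader and coding footprints of Usmg5 were thus both higher under tunicamycin, and the ratio did not pass (log2 0.05 ± 0.21 SE, edgeR adjusted p = 0.846). Its leader share was 54.7, 54.4 and 54.1% under tunicamycin and 53.7, 53.6 and 53.6% untreated. Ndufab1 had 39, 66 and 75 leader and 43, 69 and 79 coding footprints under tunicamycin, and 32, 29 and 53 leader and 38, 33 and 60 coding footprints untreated (0.11 ± 0.25, edgeR adjusted p = 0.678). In both genes the leader and coding counts moved together from library to library. No source used here says how reads shared by the leader of 1 transcript and the coding part of another were assigned, and their part in these counts was not tested.

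Footprints on the 3' UTR relative to the coding sequence passed for 0 of 48 subunit genes by edgeR, against 0.447% of 2015 genes (0.347% up, 0.0993% down). At an unadjusted p under 0.05 there were 3 of the 48, a descriptive count without the share of all genes. Ndufa7 had 6, 7 and 11 footprints on its 3' UTR under tunicamycin and 18, 18 and 18 untreated (log2 of the ratio -1.26 ± 0.31 SE, edgeR adjusted p = 0.132). Uqcrh had 32, 82 and 147 under tunicamycin and 30, 51 and 27 untreated, with overlapping groups (1.26 ± 0.39, edgeR adjusted p = 0.214).

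Harringtonine reads were deposited at 9025 positions, 144 of them in 60 subunit genes. The 3 sequences that follow run from the harringtonine position and were chosen because they show an ATG (capitals) 12 or 13 bases downstream, the distances at which ATG was most frequent over all genes. They are RefSeq sequence of GRCm38.p6, at chr10:128083315-128083344 (plus strand), chr7:122101806-122101835 (minus strand) and chr10:80406788-80406817 (minus strand). Over 6 libraries the positions held 10336 reads in Atp5b, 487 in Ndufab1 and 93 in Uqcr11. Whether each ATG serves as a start codon was not tested.
Atp5b: ccggattccgccATGttgagtcttgtgggg
Ndufab1: ggttggcgtagccATGgcgtctcgtgtcct
Uqcr11: tatacgtctgcacATGcgtagtgctccagg

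Across all readable positions ATG lay 12 bases downstream in 78 of 732 (10.7%) and 13 bases downstream in 101 of 706 (14.3%), against 0.134% at 11 and 0.146% at 14. Among positions of subunit genes it did so in 1 of 16 at 12 bases and 2 of 15 at 13, which are the 3 sequences shown. Only positions whose downstream bases lie within 250 bases before to 50 bases after a RefSeq transcript start could be read. That start is the 5' end of a transcript and not a start codon, and distances from it are genome bases. The main position lay within 100 bases of it in 31 of 52 subunit genes (59.6%) whose position could be set against one. The share was 1279 of 3546 (36.1%) over all genes. The other 8 of the 60 could not be placed.

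The initiator element of very short leaders, AANATGG directly followed by CGGC, was searched on both strands in the first 50 transcribed bases. It was found on the transcribed strand in 5 of 71 subunit genes with a sequence (7.04%), against 167 of 27025 genes (0.618%), and on the other strand in 0 and 31 (0.115%). The 27025 genes are more than the 20683 of the count table, so they were not limited to genes measured here. The shares therefore come from unlike sets, and their difference was not tested. The genes are Atp5sl, Ndufa9, Ndufs4, Ndufs6 and Ndufs7, and none passed in RNA, coding footprints or translational efficiency in the main edgeR fits. Ndufs6 passed in coding footprints with no filter, with the replicate block, and without tunicamycin library 1 or untreated library 3. Ndufs6 and Ndufa9 of complex I show the element in capitals, from RefSeq GRCm38.p6 at chr13:73328433-73328462 and chr6:126849095-126849124, both on the minus strand.
Ndufs6: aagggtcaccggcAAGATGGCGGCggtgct
Ndufa9: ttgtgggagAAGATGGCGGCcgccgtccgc

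The positions of Ndufs6 lay 8 and 9 bases downstream of the A of this ATG, with 1747 and 683 reads over 6 libraries, and 36 bases of leader come before it in RefSeq. Those of Ndufs4 lay 17 and 18 bases downstream, after 38 bases of leader. The position of Ndufs7, with 1516 reads, lay 2929 bases downstream in the genome, and Atp5sl and Ndufa9 had no kept position. A match describes the letters only.

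Reads at kept positions passed for 0 of 56 subunit genes by edgeR, against 0.0272% of 3681 genes, 0 by DESeq2 and 0 with the column number as a block. At an unadjusted p under 0.05 there were 2 of the 56, a descriptive count without the share of all genes. At single positions 0% of 5843 passed. Uqcrh held the most, 13816 reads at 1 position, with 4812, 3762 and 3027 CPM under tunicamycin and 4990, 6637 and 2934 CPM untreated. Its groups overlapped (log2 -0.33 ± 0.27 SE, edgeR adjusted p = 0.998). Usmg5 held 7668 reads at adjacent positions, with 2023, 2205 and 3959 CPM under tunicamycin and 1530, 2504 and 2008 CPM untreated. These overlapped too (0.44 ± 0.27, edgeR adjusted p = 0.998). Ndufb3, whose coding footprints rose, had 457, 468 and 333 CPM of harringtonine reads under tunicamycin and 690, 526 and 580 CPM untreated. All tunicamycin libraries were lower, and the gene did not pass (-0.51 ± 0.23, edgeR adjusted p = 0.998). Cox7a2 of complex IV had the smallest p and went the other way (0.78 ± 0.33, edgeR adjusted p = 0.998). Before scaling it had 55, 27 and 41 reads under tunicamycin and 25, 15 and 17 untreated. In complexes II, III and V the smallest p belonged to Sdhd (0.29 ± 0.29), Uqcr10 (-0.42 ± 0.22) and Atp5a1 (-0.46 ± 0.24). Of 60 subunit genes averaging 1 CPM or more, 4 (6.67%) had all tunicamycin libraries lower and 3 (5.0%) had all higher. The shares of all 4613 such genes were 4.53% and 5.57%.

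**Figure D5:**
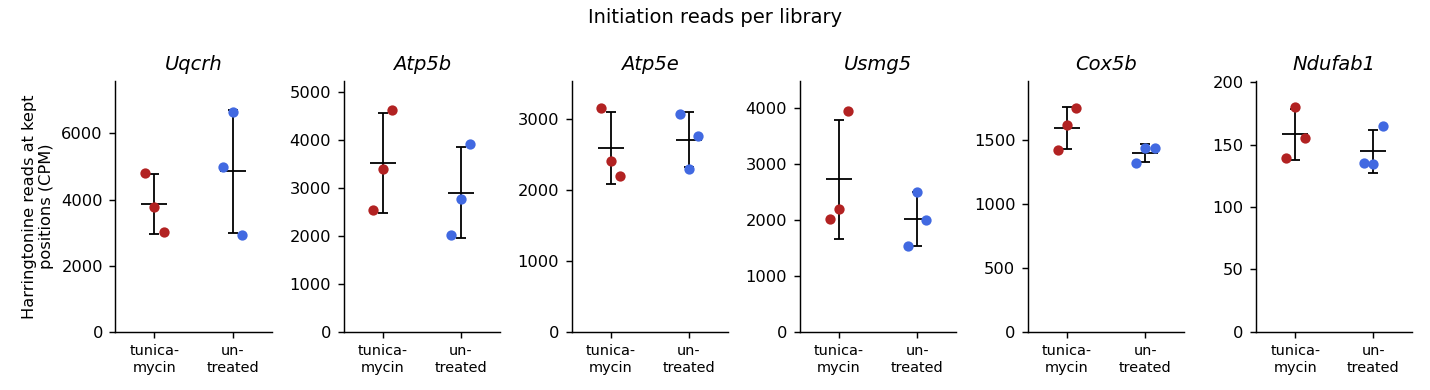
Harringtonine reads at kept positions in CPM for 6 subunit genes, with a point for each library and the mean ± SD of 3 libraries, tunicamycin left and untreated right. The groups overlap in all 6 genes, including Uqcrh, with 3027 to 4812 CPM under tunicamycin and 2934 to 6637 CPM untreated.

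Other genes of the pathway were read from lists. Among 49 assembly factors tested in coding footprints 2 rose (4.08%) and 0 fell, against 1.78% up and 0.799% down of all genes: Coa5 (log2 0.70 ± 0.17 SE, edgeR adjusted p = 0.0397) and Cmc2 (0.58 ± 0.14, edgeR adjusted p = 0.0384), both needed for complex IV. Among 19 genes of mitochondrial protein import 3 rose (15.8%) and 0 fell. They were Timm8b (0.49, edgeR adjusted p = 0.0306), a small chaperone of the intermembrane space, Chchd4 (0.45, adjusted p = 0.0332), which oxidises imported proteins, and Timm17a (0.42, adjusted p = 0.0440), a part of the inner membrane translocase. None of 17 TCA cycle genes passed (edgeR, 1 at an unadjusted p under 0.05), with 5 above 0 and 12 below. In translational efficiency Coa5 (0.83, edgeR adjusted p = 0.0413) and Timm8b (0.58, adjusted p = 0.0453) passed, 1 of 50 assembly and 1 of 22 import genes, against 0.739% up and 0.335% down of all genes. In RNA 0 genes of these lists passed by edgeR.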

How the data were processed

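The data came from 18 libraries (RNA, cycloheximide and harringtonine footprints) in 6 groups of 3. The deposited files hold raw counts: RNA reads per gene, footprints per leader, coding sequence and 3' UTR, and harringtonine reads per position. The submitters' processing notes name STAR, HTSeq and edgeR with mm10 and GRCm38; no source used here gives their versions or options.

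The test was edgeR's quasi-likelihood test (edgeR 4.0.16, R 4.3.3) after TMM scaling and a filter for low counts by filterByExpr, set to a count of 10 and a total of 15. Benjamini-Hochberg adjustment ran over all features, with 0.05 as threshold. Counts at an unadjusted p in RNA, the 3' UTR ratio and harringtonine reads have no share of all genes beside them. They are descriptive only. Translational efficiency was the assay by treatment interaction. Leader and 3' UTR ratios were the feature by treatment interaction, with the library as a term. Harringtonine reads were summed per gene over the deposited positions. DESeq2 1.42.0, no filter, the replicate block, added leader reads and left-out libraries were alternatives. The main edgeR fits per gene were run on counts simulated with known changes, and the alternatives were not.

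Since the labels name no separate cultures or animals, p-values cover only spread among these libraries, which may be technical. Same-numbered RNA libraries deviated together (correlations 0.416, 0.313 and 0.192), with -0.36 to 0.19 between libraries of different numbers. For coding footprints the values were 0.348, 0.094 and 0.276, with -0.293 to 0.024 between different numbers. The labels do not say that a number marks a shared culture. The main fits therefore did not pair by number in any assay, and the replicate block was an alternative. Members and gene lists were chosen with earlier results of these data known. Named genes are those that passed (the 12 largest where more did), the smallest p per complex, Usmg5 and Ndufab1, the 5 highest harringtonine genes, and up to 4 passing genes per pathway list. The genes with few coding footprints, Uqcrb, Uqcrq, Uqcr11 and the genes with the initiator element were named after their values were seen. Symbols of all 86 genes matched RefSeq, 82 of them directly and 4 as synonyms. Mitochondrially encoded subunits were not analysed here.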

Additional observations from a re-analysis of the deposited data

How the results depend on the processing

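Counts of subunit genes that passed depended on the fit. In coding footprints 4 passed, against 14 with no filter on low counts, 10 by DESeq2, 20 with the replicate block, 9 with leader footprints added and 1 to 13 when 1 library was left out. In translational efficiency 2 passed, against 11, 8, 15 and 5 in the same order and 1 to 9 with 1 library left out. For the 3' UTR ratio 0 passed, against 1 with no filter and 0 to 1 with 1 library left out.

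Over all features the RNA count of 16 was 122 with no filter, 112 by DESeq2, 410 with the block and 3 to 26 with 1 library left out. The coding count of 239 was 573 with no filter, 231 by DESeq2, 885 with the block, 409 with leader footprints added and 58 to 431 with 1 library left out. The translational efficiency count of 109 was 403 with no filter, 429 by DESeq2, 766 with the block, 297 with leader footprints added and 17 to 299 with 1 library left out. The leader ratio count of 3024 was 1910 to 3000 with 1 library left out. The 3' UTR count of 9 was 31 with no filter and 0 to 27 with 1 library left out. The harringtonine count of 1 was 2 by DESeq2, 3 with the block and 0 to 2 with 1 library left out.

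Directions reversed for Usmg5 in RNA, at -0.08 with all libraries and -0.15 to 0.0273 with 1 library left out (above 0 without tunicamycin library 3). They reversed for Atp5e in harringtonine reads, at -0.06 with all libraries, 0.00462 at its highest position only, and -0.24 to 0.0488 with 1 library left out (above 0 without tunicamycin library 3 or untreated library 1). The untreated footprints per RNA of complex V were 0.39, against 0.54 at 10 CPM or more and 0.48 with leader footprints added. The causes were not tested. The harringtonine block used the number in the column names, which could not be matched to single samples; 0 subunit genes passed with it.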
